A study of Mus musculus with 16 samples.

Results

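Untreated cultured mouse hepatocytes were described from 4 of the 16 RNA-seq libraries of a study of the metabolite itaconate and lipid handling in the liver. The 4 libraries, replicates A to D, were chosen by their treatment label, and no value below rests on any other library. They held primary hepatocytes of wild-type mice, kept overnight in DMEM with 5% FBS and a supplement of insulin, transferrin and selenium, with neither of the agents of the study added. The other 3 groups of 4 libraries received 10 mM sodium itaconate, a lipid mixture diluted 10-fold, or both, and were not used here, so no treatment was compared. The methods of the study give male C57BL/6J mice aged 8 to 12 weeks, and all groups shared this genotype, medium and serum. The labels do not say whether A to D came from separate mice or separate cultures, so the SD between libraries given below may be technical.

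The hepatocyte is the main cell of the liver and secretes most of the proteins of plasma: albumin, the carriers of iron, haem and vitamins, the apolipoproteins, the clotting factors and complement. It also makes glucose, urea, bile acids and cholesterol and clears drugs through cytochrome P450 and conjugating enzymes. These functions are kept up by a group of transcription factors that act on each other's genes, among them HNF4A, the FOXA proteins and CEBPA. Once isolated and plated, hepatocytes are known to lose part of this programme and to take up genes of the cytoskeleton, of stress and of the fetal liver. Preparations of primary hepatocytes can also carry Kupffer cells, endothelial cells, stellate cells, bile duct cells and blood.

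Gene levels were taken from RSEM expected counts, in which a read that matches several genes is divided among them. The totals ran from 22346049 in library A to 28619798 in library B (median 27967435), and between 17698 and 18411 genes had a count. Levels of a gene are given in CPM, its counts scaled to a library total of 1000000, as the mean ± SD over the 4 libraries. TPM, which divides by the exon length of the gene before the same scaling, is used to compare the levels of genes, and the highest and lowest members of a list were taken by TPM also where their level is given in CPM. A rank by CPM says only how large a share of the counts a gene held. A count of 3, taken as the floor, was worth between 0.105 and 0.134 CPM in a library and 0.0281 CPM over the 4 libraries together. Of 55450 genes in the annotation, 11661 had a mean of at least 1 CPM, 11010 of them protein-coding (50.2% of the 21951 protein-coding genes), and 33775 had no count in any of the 4 libraries. Each count of list members at or above 1 CPM given below can be set beside this 50.2% of protein-coding genes. The floors cover counting error only, and the SD is the spread between libraries.

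By mean CPM, the 4 defining products of the hepatocyte held more counts than any other nuclear gene. They are the markers that define this group of libraries, so their rank is a description and no check of its label. In library B *Eef1a1*, a gene of translation, was at 7668 CPM against 7612 CPM for *Apoe*. *Alb* (ENSMUSG00000029368.10, chr5:90460897-90476602, plus strand), which encodes albumin, was at 42398, 32944, 30433 and 32415 CPM in libraries A to D, a mean of 34547 ± 5344 CPM (SD, n = 4) or 3.45% of all counts. *Trf* (chr9:103204001-103230444, minus strand), the iron carrier transferrin, was at 15646, 14528, 13360 and 12476 CPM, and *Hpx* (chr7:105591613-105600137, minus strand), which binds haem, at 10131, 9096, 7264 and 7339 CPM. For each of these 3 genes library A was the highest. *Apoe* (chr7:19696109-19699188, minus strand), an apolipoprotein of remnant particles that macrophages make as well, was almost level at 7644, 7612, 7802 and 7397 CPM. Per exon length *Alb* stood at 38560 ± 5478 TPM, above *Hpx* at 14748 ± 2275 TPM, *Trf* at 11030 ± 959 TPM and *Apoe* at 9320 ± 192 TPM. The 4 markers together made up 6.46% of the counts.

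Promoters of some plasma proteins carried the letters GTTAAT. The 110 bases before the RefSeq start are printed below for 5 abundant secreted products that were picked because they carry the letters and for *Afp*, the fetal relative of albumin next to it on chromosome 5, to show the same letters in front of genes of very different level. They were read from RefSeq promoter windows of mouse build GRCm38.p6, 5′ to 3′ along the gene's strand, with GTTAAT or its reverse complement ATTAAC in capitals.
Alb, chr5:90460760-90460869, plus strand: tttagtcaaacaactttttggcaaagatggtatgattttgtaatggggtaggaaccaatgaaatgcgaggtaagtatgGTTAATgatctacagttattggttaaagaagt
Gc, chr5:89457899-89458008, minus strand: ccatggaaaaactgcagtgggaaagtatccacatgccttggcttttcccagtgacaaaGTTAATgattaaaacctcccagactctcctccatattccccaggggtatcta
Fgb, chr3:83049864-83049973, minus strand: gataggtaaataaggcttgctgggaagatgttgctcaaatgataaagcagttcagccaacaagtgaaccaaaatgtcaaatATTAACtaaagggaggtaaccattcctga
Fga, chr3:83026043-83026152, plus strand: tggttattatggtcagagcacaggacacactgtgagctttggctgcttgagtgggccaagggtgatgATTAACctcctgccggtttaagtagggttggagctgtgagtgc
Serpina1e, chr12:103956898-103957007, minus strand: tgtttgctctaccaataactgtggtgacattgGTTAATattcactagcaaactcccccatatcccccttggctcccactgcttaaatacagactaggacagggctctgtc
Afp, chr5:90490604-90490713, plus strand: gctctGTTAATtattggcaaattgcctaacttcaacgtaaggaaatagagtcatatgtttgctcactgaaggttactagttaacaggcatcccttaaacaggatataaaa
The capitals began 32 bases before the start for *Alb*, 52 for *Gc*, 29 for *Fgb*, 43 for *Fga*, 78 for *Serpina1e* and 105 for *Afp*. *Gc*, the vitamin D carrier, was at 5499 ± 244 CPM, the fibrinogen chains *Fgb* and *Fga* at 4214 ± 310 and 2486 ± 152 CPM, and *Serpina1e*, an inhibitor of proteases of the alpha-1-antitrypsin family, at 3260 ± 572 CPM. *Afp* was at 0.850, 0.839, 0.471 and 1.02 CPM with the same letters in its window.

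Of the 16522 protein-coding genes matched by symbol to the RefSeq windows, some had more than 1 start, which gave 20150 windows of 300 bases, from 250 before to 50 after the start. Of the 100 most abundant genes, 66 had a window. Either form of GTTAAT was in 25.5% of the 106 windows of listed secreted plasma proteins at or above 1 CPM, in 6.15% of all windows and in 4.23% of the 71 windows of ribosomal proteins. Within the 110 bases before the start the shares were 18.9%, 2.38% and 1.41%. For genes without a count, either form was in 9.61% of the windows and in 4.24% within the 110 bases. The windows of secreted proteins are not independent. *Serpina1a* to *Serpina1e* carried the letters within the same stretch of bases, and *Serpina7* was counted at more than 1 start. The TATA box letters TATAAA, read on the strand of the gene, were in 22.5% of the 80 windows of the 100 most abundant genes, in 4.26% of the 11077 windows of other genes at or above 1 CPM and in 16.2% of the 5161 windows of genes without a count. The reverse letters TTTATA were in 10.0%, 3.36% and 10.5% of the same windows. The abundant and the silent genes thus both carried TATAAA more often than the broad middle of the transcriptome. A match to letters describes the window and says nothing of whether a factor was bound there.

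Counts were concentrated in few genes, and the listed secreted products held a larger share of the counts than any other listed group. The 10 most abundant genes held 11.2 ± 0.731% of all counts (SD, n = 4), the 100 most abundant 31.1 ± 1.11%, and 50% of the counts lay in 446 genes in library A and in 505, 514 and 519 genes in B to D. The 110 genes of at least 1000 CPM took 32.2% of the counts, and the 1814 genes between 100 and 1000 CPM took 40.7%. By contrast 3261 genes between 1 and 10 CPM took 1.39%. Listed secreted plasma proteins, 141 genes of which 127 reached 1 CPM, accounted for 19.1, 17.1, 16.4 and 16.6% of the counts in A to D, ribosomal proteins for 2.85 ± 0.164% and the listed cytoskeleton and adhesion genes for 2.199 ± 0.0904%. Library A had the largest share of secreted products and the fewest genes holding 50% of its counts.

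**Figure D1:**
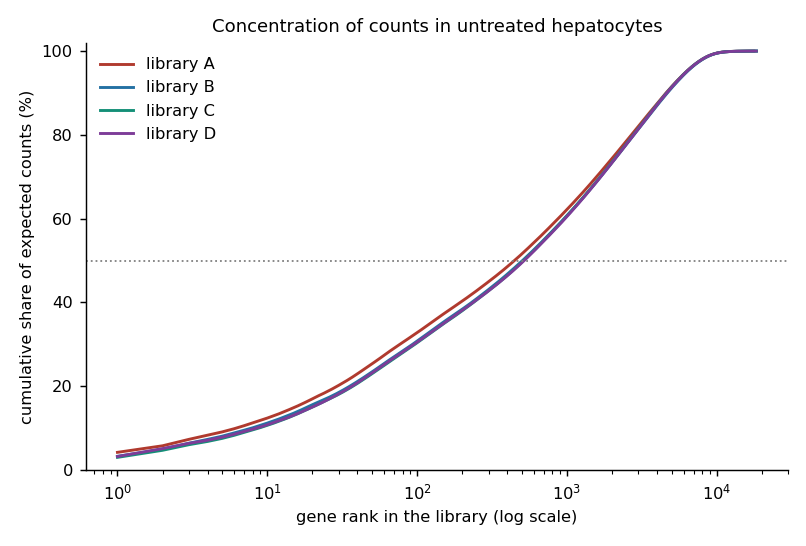
Cumulative share of expected counts (y axis, percent of the library total) against gene rank (x axis, log scale, rank 1 is the most abundant gene of that library), with a line for each untreated library A to D. Library A lies above the other 3 lines, and reaches 50% at 446 genes against 505 to 519 genes in B to D.

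Among the 30 most abundant genes by CPM, 13 were listed secreted plasma proteins, 3 were encoded by the mitochondrial genome, 2 were nuclear copies of mitochondrial genes and 3 were of the cytoskeleton. Next to the 4 markers stood *Clu*, a secreted chaperone (6921 ± 309 CPM), *Gc*, *Mup3*, a major urinary protein (5050 ± 437 CPM), *C3*, the central complement component (4757 ± 382 CPM), *Fgb*, *Serpina1c* of the alpha-1-antitrypsin family (4152 ± 127 CPM), *Hp*, which binds haemoglobin (4025 ± 691 CPM), *Mup20* (3684 ± 1300 CPM), *Serpina1e* and *Ahsg*, the plasma glycoprotein fetuin-A (2905 ± 209 CPM). The genes of other roles were those of translation, *Eef1a1* and *Eef2* (7311 ± 384 and 2931 ± 152 CPM), of iron storage, *Ftl1* and *Fth1* (5575 ± 447 and 4308 ± 413 CPM), of glycolysis, *Gapdh* (4668 ± 263 CPM), of protein folding, *Hspa8* (3417 ± 276 CPM), and of the cytoskeleton, *Krt8*, *Krt18* and *Actb* (4347 ± 240, 3484 ± 234 and 2883 ± 254 CPM). *Scd1*, which makes monounsaturated fatty acids, was the most abundant enzyme of lipid metabolism, at 5317, 5895, 3717 and 4265 CPM in A to D. Its 4 libraries spread more widely than those of *Apoe* or *Serpina1c*, with A and B above C and D.

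**Figure D2:**
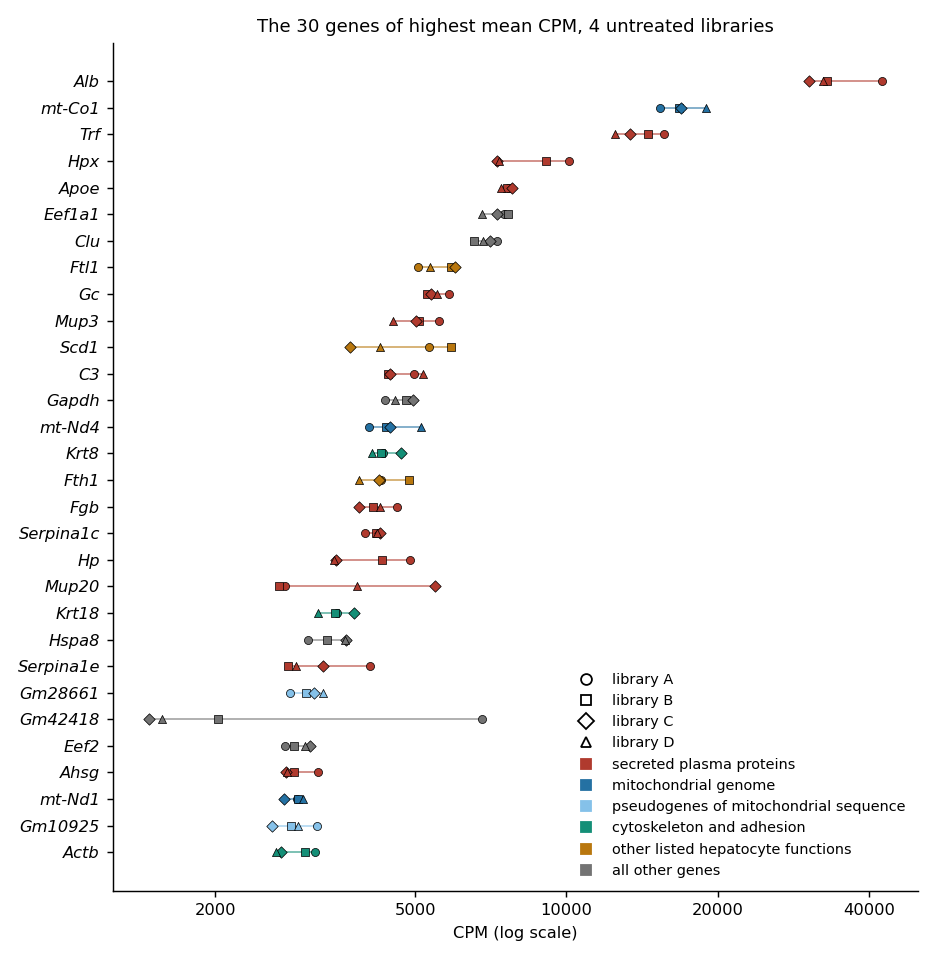
Levels of the 30 genes of highest mean CPM in each of the 4 untreated libraries (x axis, CPM on a log scale), with genes in order of mean level and coloured by kind. *Alb* at 30433 to 42398 CPM leads in every library, most genes hold their 4 points close together, and *Gm42418* stands out with 6779 CPM in library A against 1479 to 2029 CPM in the other 3.

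Taking exon length into account changed the order, and 20 of the 30 most abundant genes by CPM were also among the 30 most abundant by TPM. Short mRNAs moved up. *Apoa2*, an apolipoprotein of HDL, was in place 43 by CPM (2468 ± 104 CPM) and in place 6 by TPM (12029 ± 467 TPM), and the metallothionein *Mt2*, which binds zinc and copper, in places 63 and 18 (7848 ± 578 TPM). *C3*, with a long mRNA, was in place 12 by CPM and 58 by TPM.

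Plasma carriers were nearly all present, with 21 of 22 listed genes at or above 1 CPM and 20 at or above 100 CPM. *Orm1*, an acute phase glycoprotein (3488 TPM on average), *Ambp*, the precursor of bikunin (3445 TPM), *Selenop*, the selenium carrier (2590 TPM), and *Rbp4*, the retinol carrier (1916 TPM), followed the most abundant ones. The lowest were *Serpina6*, the corticosteroid carrier, at 24.7 ± 3.23 CPM and *A1bg* at 0.0624 ± 0.0538 CPM, the latter with no more than 3 counts in any library. *A1bg* is also listed among the genes known to be higher in female mouse liver.

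All 22 listed genes of apolipoproteins and lipoprotein assembly reached 1 CPM, and 16 reached 100 CPM. *Apoa2*, *Apoe*, *Apoa1* (4688 ± 905 TPM) and *Apoc1* (4055 TPM) led by TPM, and *Apob*, the structural protein of VLDL, was at 1722 ± 116 CPM. *Apoa1*, the main protein of HDL, was at 2825, 2310, 1851 and 1884 CPM in A to D. Its order over the libraries followed that of *Hpx* and *Hp*, with A highest and C and D lowest, whereas *Apoa2* stayed within 2332 to 2584 CPM. *Pltp*, which moves phospholipid between lipoproteins, and *Lpl*, the lipase of peripheral tissues, were lowest at 25.1 ± 6.90 and 9.97 ± 2.94 CPM.

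Clotting factors and their inhibitors were present in 23 of 24 cases. The 3 fibrinogen chains led with 2893 ± 189 TPM for *Fgb*, 2216 ± 121 TPM for *Fgg* and 2161 ± 115 TPM for *Fga*. The ratio of *Fgb* to *Fga* in TPM was 1.366, 1.301, 1.332 and 1.354 in A to D, and that of *Fgb* to *Fgg* 1.302, 1.284, 1.260 and 1.376. The chains of this complex thus kept similar ratios over the libraries, with *Fgb* to *Fgg* lowest in C and highest in D. *Klkb1*, the precursor of plasma kallikrein, was low at 33.7 ± 3.39 CPM. *F8*, which encodes factor VIII and is made chiefly by endothelial cells, was the only listed factor under 1 CPM, at 0.806, 1.502, 0.435 and 1.09 CPM.

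The complement list had 22 of 23 members at or above 1 CPM. *C3* (2421 ± 198 TPM), *Cfb*, the factor B of the alternative pathway (1237 TPM), and *Serping1*, the inhibitor of C1 (603 TPM), led it. *Cfp*, or properdin, a product of leukocytes, was at 3.15 ± 0.816 CPM, and *Cfd*, a product of adipocytes, at 0.443 ± 0.259 CPM. The members made by other cells were thus the low ones.

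All 18 acute phase genes reached 10 CPM, and 15 reached 100 CPM. *Hp*, *Orm1* and *Fgb* led by TPM. *Saa1* and *Saa2*, serum amyloid A proteins that are low in resting liver, were at 1507 ± 173 and 1429 ± 269 CPM, and *Lcn2*, an iron-binding defence protein, was at 1098, 1036, 638 and 706 CPM in A to D. *Hamp*, which encodes the iron hormone hepcidin, was at 301 ± 54.9 CPM. *Saa4* and *Lbp*, which binds bacterial lipopolysaccharide, were the lowest by TPM, at 76.7 ± 9.26 and 54.2 ± 4.61 CPM. Fresh liver was not analysed here, so these levels cannot be set against those of the animal.

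Major urinary proteins, pheromone carriers that male mice excrete in large amounts, held 1.85 ± 0.127% of the counts, with 19 of 22 genes of the family at or above 1 CPM. *Mup3*, *Mup20* and *Mup7* were at 12367 ± 919, 10408 ± 3727 and 6439 ± 602 TPM, and *Mup1* and *Mup2* at 112 and 29.4 TPM. *Mup20* was at 2754, 2686, 5470 and 3827 CPM in A to D, and *Mup18* at 96.6, 99.5, 13.4 and 202 CPM. Genes of this family are nearly identical, so reads may be divided unevenly among them and the level of a single member is uncertain. The sum over the family ran from 16648 to 19498 CPM, a far narrower spread than that of *Mup20* or *Mup18*.

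The mitochondrial genome gave 3.63, 3.70, 3.65 and 4.14% of the counts in A to D. All 13 of its protein-coding genes were found, led by *mt-Co1*, a subunit of complex IV (16984 ± 1475 CPM, 28794 ± 2832 TPM), and *mt-Nd4* and *mt-Nd1* of complex I (4503 ± 452 and 2892 ± 108 CPM), while *mt-Nd3* and *mt-Nd6* were lowest (45.2 ± 16.5 and 12.0 ± 2.31 CPM). These levels were touched by a stretch of nuclear DNA on chromosome 1, minus strand, between 24612407 and 24616197, which the annotation lists as 6 pseudogenes. For 4 of them every 31-base word also occurs in a mitochondrial gene, and for the other two 97.2 and 99.0% of the words do. The pseudogenes *Gm28661*, *Gm10925*, *Gm28437* and *Gm29216* had 3074 ± 194, 2886 ± 245, 2770 ± 319 and 2507 ± 141 CPM.

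The split between gene and copy differed between mitochondrial genes. The copy held 90.9% of the joint counts of *mt-Co2* and *Gm28661*, 92.1% for *mt-Atp6* and *Gm10925*, 84.3% for *mt-Co3* and *Gm28437*, and 12.9% for *mt-Co1* and the shorter *Gm29216*. Added together, *mt-Co2* and its copy were at 3209, 3356, 3478 and 3489 CPM, against 309 ± 74.1 CPM for the gene alone. Reads from identical sequence cannot be assigned to either place, so levels of *mt-Co2*, *mt-Co3*, *mt-Atp6*, *mt-Nd3* and *mt-Nd4l* are uncertain. With the 6 copies counted in, the mitochondrial share was 4.95 ± 0.269%.

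All 29 listed hepatocyte transcription factors and nuclear receptors reached 1 CPM. *Hnf4a*, the nuclear receptor at the centre of hepatocyte identity, was at 182, 224, 218 and 221 CPM in A to D, and *Cebpa*, a leucine zipper factor of mature hepatocytes, at 131 ± 10.2 CPM. The forkhead factors *Foxa3*, *Foxa2* and *Foxa1* were at 44.7, 21.8 and 11.0 TPM, in that order. The highest of the list by TPM were *Atf5* (710 TPM), *Cebpb* (423 TPM), a factor of the acute phase response, and *Zfp36l1* (387 TPM), which encodes an mRNA-decay protein rather than a transcription factor. Hepatocyte factors were therefore present at moderate levels, and the factor linked to the acute phase exceeded its relative *Cebpa* by TPM in the means.

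Several nuclear receptors of metabolism were low. *Ppara*, the receptor for fatty acids, was at 5.29 ± 1.08 CPM, *Nr1i3*, or CAR, at 5.09 ± 0.325 CPM, and *Nr0b2*, or SHP, which bile acids are known to raise through FXR, at 1.11 ± 0.187 CPM. *Nr1h4*, which encodes FXR itself, was at 10.1 ± 2.45 CPM. *Esr1*, the oestrogen receptor, was the lowest by TPM, at 1.32 ± 0.692 CPM. *Rxra*, the common partner of the receptors of lipids and bile acids, was at 60.7 TPM against 3.61 TPM for *Ppara*.

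The enzymes of nitrogen metabolism were all present, 13 of 13 genes of the urea cycle and ammonia and 34 of 34 of amino acid breakdown. *Ass1*, argininosuccinate synthase, was at 884, 659, 625 and 602 CPM in A to D, *Cps1*, which fixes ammonia, at 278, 176, 177 and 177 CPM, and *Arg1*, which releases urea, at 183, 125, 134 and 98.1 CPM. In each of these genes library A lay above the other 3. *Glud1*, glutamate dehydrogenase, was more even at 509 ± 13.8 CPM. The lowest of the list were *Slc25a15*, the ornithine carrier of mitochondria (28.1 ± 2.11 CPM), and *Rhbg*, an ammonia transporter (1.13 ± 0.299 CPM).

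Amino acid breakdown was led by *Gnmt*, which disposes of methyl groups (710 TPM), and by *Hpd* of the tyrosine pathway and *Mat1a*, which makes S-adenosylmethionine (355 and 154 TPM). *Bhmt*, which remethylates homocysteine, was among the most uneven genes of the culture at 204, 141, 68.7 and 87.8 CPM, and *Sds*, serine dehydratase, was at 20.2, 8.35, 9.13 and 7.80 CPM. Library A was the highest for both. *Hal*, which breaks down histidine, and *Kynu*, of the tryptophan pathway, were lowest by TPM, at 20.1 ± 8.43 and 10.6 ± 2.26 CPM.

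Glucose metabolism showed a mixed picture, in which liver forms of some enzymes led and forms typical of other tissues led elsewhere. *Ugp2*, which makes UDP-glucose, and *Sord*, sorbitol dehydrogenase, were among the highest liver forms by TPM (420.4 and 319.6 TPM). All 19 listed liver forms reached 1 CPM, as did 12 of 17 forms of other tissues. Uptake was one of the steps at which the form of other tissues led. *Slc2a2*, the low-affinity transporter of liver, was at 25.8, 22.8, 15.4 and 13.8 CPM, whereas *Slc2a1*, the transporter of growing cells, was at 335, 296, 324 and 293 CPM. The ratio of *Slc2a1* to *Slc2a2* in TPM was 28.02 ± 7.72 (SD, n = 4), with the genes apart in every library.

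At other steps the liver form was ahead. *Pygl*, the liver form, exceeded the brain form of glycogen phosphorylase, *Pygb*, 8.85 ± 1.94-fold by TPM (15.3-fold by the longest transcript), and *Gys2* exceeded the muscle glycogen synthase *Gys1* 1.91 ± 0.0991-fold. *Fbp1*, fructose bisphosphatase of liver, was at 283 TPM and the muscle form *Fbp2* at 0.459 TPM. The gluconeogenic enzymes *Pck1* (48.5, 20.7, 32.7 and 29.4 CPM) and *G6pc* (6.72 ± 1.32 CPM), which releases free glucose, were low among the liver forms.

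Lower glycolysis leaned the other way. *Pkm*, the pyruvate kinase of most tissues, exceeded *Pklr*, the liver form, in every library, with a ratio in TPM of 3.76 ± 1.90 (6.22 by the longest transcript) that was widest in library C, where *Pklr* was at 51.2 CPM against 82.0 to 103 CPM elsewhere. *Pfkfb3*, which raises fructose 2,6-bisphosphate in dividing cells, exceeded the liver form *Pfkfb1* 26.6-fold by TPM, at 119 ± 14.8 against 2.49 ± 0.535 CPM. *Ldhb*, *Slc2a3* and *Slc2a4* were close to absent, at 0.327, 0.0491 and 0.0112 CPM. The 19 pairs behind these ratios were chosen after levels had been seen, and they have no counterpart from fresh liver here.

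**Figure D3:**
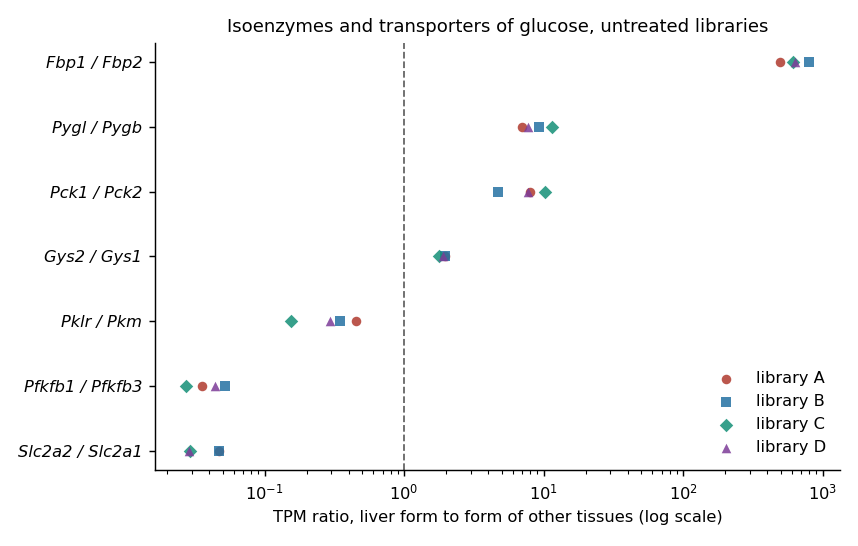
Ratio, in TPM, of the liver form of an enzyme or transporter to the form of other tissues (x axis, log scale, 1 marks equal levels) for each untreated library A to D. *Fbp1*, *Pygl*, *Pck1* and *Gys2* lie to the right of 1 in all 4 libraries, and *Slc2a2*, *Pfkfb1* and *Pklr* to the left.

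Fat synthesis and storage were represented by 33 of 34 genes at or above 1 CPM. *Scd1* led with 2565 ± 515 TPM, followed by *Plin2*, the coat protein of lipid droplets (877 TPM), and *Fads2*, which desaturates polyunsaturated fatty acids (349 TPM). *Cidea*, a droplet protein of brown fat and fatty liver, was at 1.13 ± 0.259 CPM, and *Pnpla3*, a lipase that feeding induces, at 0.545 ± 0.160 CPM. The list therefore ran over more than 3 orders of magnitude, from *Scd1* downward.

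Fatty acid oxidation and ketogenesis reached 1 CPM in 31 of 32 genes. *Fabp1*, which binds fatty acids in the cytosol, was highest at 3488 TPM, ahead of the thiolases *Acaa2* and *Acaa1b* (636 and 440 TPM). *Cpt1a*, the gate of mitochondrial uptake, was at 34.6 ± 4.35 CPM. *Fgf21*, a fasting hormone under the control of PPARA, was at 0.761, 0.839, 0.435 and 0.388 CPM, the only member under 1 CPM. With *Ppara* at 5.29 ± 1.08 CPM, the receptor and this target were the lowest of the list by TPM (3.61 and 1.66 TPM).

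Each of the 25 genes of cholesterol synthesis and its control was above 10 CPM. *Insig1*, the sterol-regulated retention protein (197 TPM), *Fdps* (168 TPM) and *Sc5d* (164 TPM), an early and a late enzyme, led the list. *Mvk*, mevalonate kinase, and *Nceh1*, a cholesteryl ester hydrolase, were lowest by TPM, at 10.2 ± 3.61 and 11.4 ± 1.08 CPM. The 4 libraries differed as little here as over all genes at or above 1 CPM, with a median SD of 0.13 on the log2 CPM scale in both.

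Bile acid synthesis was present in all but its rate-limiting enzyme and a brain enzyme, 14 of 16 genes. *Cyp7a1*, which opens the classical route, was at 0.492, 0.245, 0.326 and 0.353 CPM, from 7 to 11 counts in a library. *Cyp27a1*, which opens the alternative route, was at 198, 188, 208 and 204 CPM, and *Cyp7b1*, next in that route and known to be higher in males, at 91.5 ± 8.96 CPM. The alternative route was thus present while the classical entry was near the floor. *Scp2* and *Slc27a5*, which act in side-chain shortening and conjugation, led the list with 826 and 304 TPM, *Cyp8b1*, which makes cholic acid, was at 8.87 ± 0.935 CPM, and *Cyp46a1*, the enzyme of brain, at 0.502 ± 0.0998 CPM.

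Transporters of bile acids and drugs numbered 24 of 26 at or above 1 CPM. On the blood side, *Slco1b2*, which takes up organic anions, was at 79.1 ± 6.76 CPM, and *Slc10a1*, or NTCP, which takes up bile acids, at 47.5, 39.2, 29.7 and 36.3 CPM. On the canalicular side *Abcb11*, the bile salt pump, was at 73.4 ± 3.39 CPM and *Abcc2* at 266 ± 21.3 CPM. *Abcc3*, an exporter of the basolateral side, exceeded *Abcc2* 1.97-fold by TPM and was the highest of the list at 160 ± 6.77 TPM, ahead of *Aqp9*, a glycerol channel (87.9 TPM). The subunits of the basolateral bile acid exporter, *Slc51a* and *Slc51b*, were lowest, *Slc51a* with no count in any library, which allows up to 0.0281 CPM over the 4, and *Slc51b* at 0.464 ± 0.186 CPM.

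Cytochromes P450 held 0.828% of the counts. Of the 100 annotated genes of the superfamily 52 reached 1 CPM, a share near the 50.2% of all protein-coding genes. *Cyp2e1*, which handles ethanol and acetone, was at 1366, 1522, 1911 and 1978 CPM, with A and B below C and D. *Cyp3a11*, the main drug-metabolising form, was at 1238 ± 79.5 CPM, *Cyp2d10* at 350 ± 16.1 CPM, and *Cyp1a2*, a pericentral form, at 190 ± 22.6 CPM. *Por*, the reductase that feeds electrons to them all, was at 581 ± 47.3 CPM. Of the 37 listed genes 8 lay under 1 CPM, among them *Cyp1a1* and *Cyp1b1*, which the aryl hydrocarbon receptor induces (0.745 ± 0.217 and 0.00874 ± 0.0175 CPM), *Cyp4b1* (0.875 ± 0.222 CPM), *Cyp2c39* (0.230 ± 0.0996 CPM), and *Cyp17a1*, *Cyp2a4*, *Cyp2b9* and *Cyp3a41a*, which are female-biased in mouse liver.

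Conjugating enzymes were found in 42 of 43 cases. *Gstp1*, a glutathione transferase that is higher in male mouse liver, was at 3456 ± 192 TPM, *Gstm1* at 2159 TPM and *Mgst1*, a transferase of membranes, at 1472 TPM. *Ugt2b5*, a glucuronosyltransferase, was at 332 ± 18.9 CPM. *Gstt3* and *Sult1c2*, a sulfotransferase, were lowest by TPM, at 5.63 ± 1.03 and 0.416 ± 0.196 CPM. Among the aldehyde, alcohol and flavin enzymes 29 of 30 reached 1 CPM, led by *Cat*, or catalase, and the carboxylesterases *Ces1c* and *Ces3a* (1360.3, 1350.1 and 784 TPM), with *Fmo2* low at 1.503 ± 0.567 CPM.

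Iron and haem genes were among the strongest of the culture, with 19 of 20 at or above 1 CPM and 1.93% of the counts. The ferritin chains *Ftl1* and *Fth1* were at 10894 ± 944 and 3250 ± 305 TPM, and the metallothioneins *Mt2* and *Mt1* at 7848 ± 578 and 4549 ± 549 TPM. *Hmox1*, which breaks down haem and is a stress gene, was at 1329, 1412, 1560 and 1287 CPM. *Tmprss6*, which restrains hepcidin, was at 316 ± 17.1 CPM. *Hfe2*, or hemojuvelin, was at 4.17 ± 1.00 CPM, and *Bmp6*, a signal to hepatocytes that endothelial cells are known to make, at 0.742 ± 0.141 CPM.

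Hormones and growth factors of the liver were present in 27 of 32 cases. *Ahsg* led at 3459 TPM, and *Igfbp1*, a binding protein of IGF, was at 806 TPM. *Igf1* was at 195 ± 11.8 CPM and the growth hormone receptor *Ghr* at 103 ± 5.65 CPM. The members under 1 CPM were *Fgf21*, *Ermap* (0.569 ± 0.288 CPM), *Hgf*, a growth factor of stellate and endothelial cells (0.576 ± 0.260 CPM), *Igf2*, of the fetal liver (0.142 ± 0.132 CPM), and *Epo*, with 0.00906 ± 0.0181 CPM. The growth hormone axis was thus present and the fetal and non-hepatocyte factors were low.

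**Figure D4:**
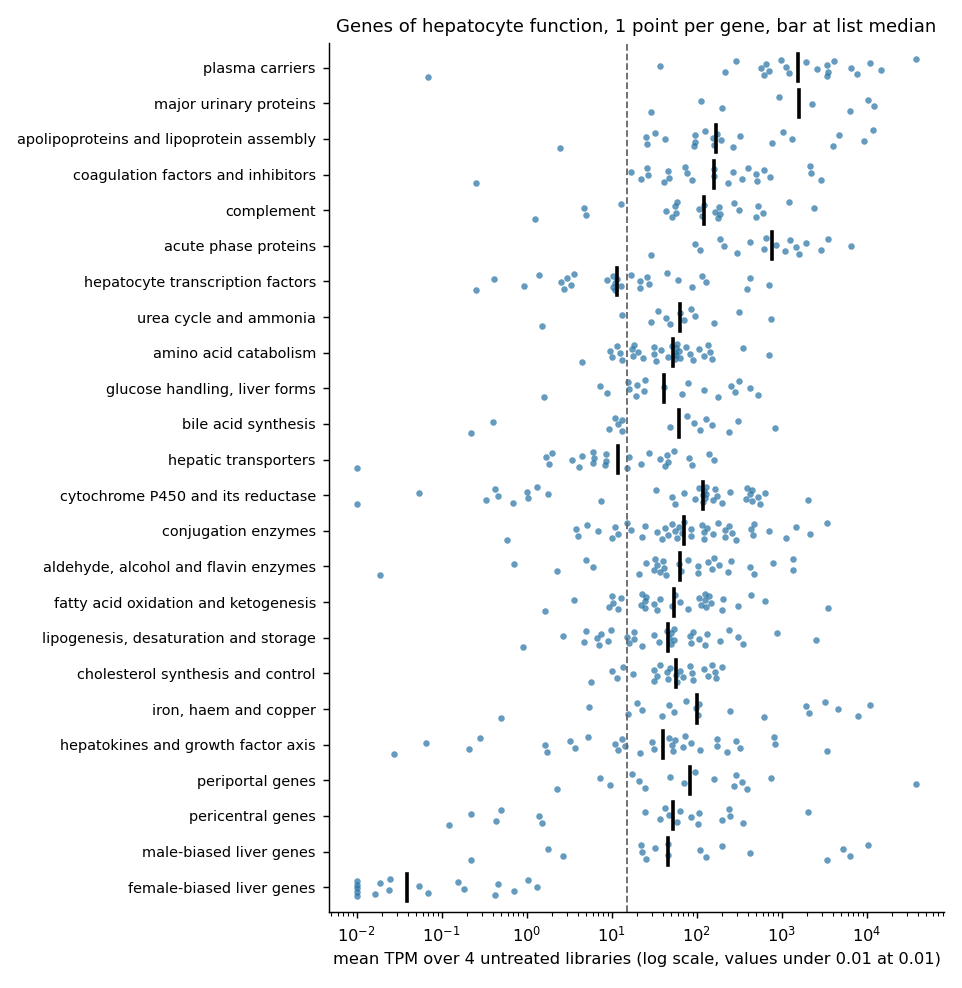
Mean TPM over the 4 untreated libraries (x axis, log scale, values under 0.01 drawn at 0.01) of each gene of the lists of hepatocyte function, with a bar at the median of each list. The dashed line marks the median of the 11661 genes at or above 1 CPM, 15.3 TPM, and every list but the hepatocyte transcription factors, the hepatic transporters and the female-biased genes has its median above it.

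Over all lists of hepatocyte function, 481 of 518 genes (92.9%) were at or above 1 CPM, against 50.2% of all protein-coding genes. Their median was 58.3 TPM, against 15.3 TPM for all genes at or above 1 CPM. Outside the female-biased list 479 of 500 genes reached 1 CPM, and 236 of the 500 reached 100 CPM. The lists and their limits were drawn up with earlier results of these data known. The count therefore describes the culture, is no test and compares the culture with no other.

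Genes of both ends of the liver lobule were found. Along the lobule, periportal hepatocytes are known for urea synthesis and gluconeogenesis and pericentral ones for drug metabolism and glutamine synthesis. All 16 periportal genes and 17 of 20 pericentral genes reached 1 CPM. Without *Alb*, the periportal genes summed to 2930, 2290, 2325 and 2310 CPM in A to D, and the pericentral genes to 2652, 2914, 3346 and 3501 CPM. Library A had the highest periportal and the lowest pericentral sum. *Cyp2e1*, which was kept in, averaged 1694 CPM against 3103 ± 390 CPM for the pericentral sum, so that sum rests largely on 1 gene.

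Apart from *Cyp2e1*, single genes did not all follow these sums. *Cyp2e1*, pericentral, exceeded *Cyp2f2*, periportal, by TPM 4.08, 4.90, 5.51 and 6.51-fold in A to D. *Rgn*, a calcium-binding protein, was next to *Cyp2e1* among the pericentral genes at 353 TPM, and *Glul*, glutamine synthetase of the innermost pericentral cells, was at 113, 111, 97.2 and 112 CPM, lowest in C, while periportal *Cyp2f2* was highest in C (314, 292, 326 and 285 CPM). The targets of Wnt signalling that mark the same cells, *Axin2* and *Lgr5*, were at 0.926 ± 0.145 and 0.479 ± 0.246 CPM, and *Aldh1b1*, the lowest periportal gene by TPM, was at 2.00 ± 0.764 CPM. Whether the libraries differed in their mix of periportal and pericentral cells was not tested.

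Sex-biased liver genes had the pattern of male mice. Of 17 genes known to be higher in male liver 16 reached 1 CPM, led by *Mup20*, *Mup7* and *Serpina1e* (10408, 6439 and 5269 TPM), while *Cyp2u1* was at 3.59 ± 0.417 CPM and *Cspg5* at 0.849 ± 0.295 CPM. Of 18 genes higher in female liver, *Cyp2c40* (1.03 ± 0.754 CPM) and *Fmo2* alone reached 1 CPM, 5 had no count in any library (*Cux2*, *Hao2*, *Cyp2b13*, *Cyp3a41b* and *Sult2a1*), and the whole list summed to 4.52 ± 1.87 CPM. *Cyp2c40* owed its place to library A, and its mean over the other 3 libraries was 0.671 CPM. *Cyp17a1* (0.493 ± 0.231 CPM), *Cyp2b9* (0.304 ± 0.240 CPM), *Acot3* (0.203 ± 0.180 CPM) and *Cyp2c69* (0.119 ± 0.00643 CPM) lay between, and *Cyp3a41a*, *Cyp3a44*, *Cyp3a16* and *Sult3a1* averaged less than the floor of a single library. *Cyp2a4*, nearly identical to *Cyp2a5* at 417 ± 54.6 CPM, was at 0.704 ± 0.797 CPM and is uncertain for that reason. The Y-linked *Ddx3y*, *Eif2s3y*, *Kdm5d* and *Uty* were at 67.6 ± 7.61, 49.1 ± 1.81, 14.9 ± 1.06 and 12.8 ± 0.915 CPM, and *Xist*, of the inactive X chromosome, had a single count in library B and none in the others. The sex given by the study and the RNA matched in all 4 libraries.

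Genes of the cytoskeleton and adhesion were abundant, and 36 of 39 reached 1 CPM and 24 reached 100 CPM. The keratins *Krt18* and *Krt8*, which pair in simple epithelia, led with 6344 ± 414 and 5811 ± 321 TPM, and their ratio, *Krt8* to *Krt18*, was 0.908, 0.908, 0.909 and 0.941 in A to D. *Actb*, beta-actin, was at 2814 ± 217 TPM. *Fn1*, fibronectin, which hepatocytes also secrete into plasma, was at 1815 ± 111 CPM, and *Vim*, a mesenchymal filament, at 116 ± 27.3 CPM. Smooth muscle genes were absent or low, with *Acta2* at no count and *Myl9* at 0.0512 ± 0.0646 CPM, and among 49 keratins only 5 reached 1 CPM.

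Genes of fetal and progenitor liver split into a high and a low set. *Anxa5* and *Spp1*, an annexin and the secreted osteopontin, were at 1323 and 1120 TPM, *Tnfrsf12a*, the receptor of TWEAK, at 475 TPM, and *Sox9*, a factor of bile ducts and injured hepatocytes, at 119, 115, 136 and 122 CPM. *Spp1* ran from 998 CPM in A through 774 and 584 to 472 CPM in D. The classical oncofetal genes stood at the other end, with *Afp* at 0.796 ± 0.233 CPM and no count for *Gpc3*, *H19* or *Cldn7*. In all 7 of 21 genes reached 1 CPM. *Alb* and *Afp*, neighbours on chromosome 5, were at 38560 and 0.619 TPM.

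Immediate early and stress genes were on in 30 of 31 cases. *Hspa5*, the chaperone BiP of the endoplasmic reticulum, was at 1931, 1376, 1921 and 2566 CPM, with B low and D high, and *Junb* and *Jund* of the AP-1 family were at 452 and 442 TPM. *Atf3* was at 164 ± 28.8 CPM and *Myc* at 185 ± 13.7 CPM, both early genes of hepatocyte isolation and regeneration. *Fos*, whose mRNA decays within minutes to hours, was at 18.4 ± 1.64 CPM, and *Egr2* and *Egr3* were lowest at 1.13 ± 0.301 and 0.0176 ± 0.0203 CPM.

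Cell cycle genes were at or above 1 CPM for 16 of 26 members, against 50.2% of all protein-coding genes, and 8 were at or above 10 CPM. *Pcna*, the clamp of DNA polymerase, was at 109 ± 10.6 CPM, *Mcm6* at 171 ± 20.5 CPM and *Mcm7*, like it a part of the replicative helicase, at 81.3 ± 8.31 CPM. *Mki67*, found in dividing cells, was at 0.0448, 0.0349, 0.0362 and 0.247 CPM, and *Bub1*, of the mitotic checkpoint, at 0.0176 ± 0.0203 CPM. *Ccnd1*, the cyclin that carries hepatocytes into the cell cycle, was at 1.13 ± 0.267 CPM.

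Chemokines and inflammatory genes were at or above 1 CPM for 18 of 32 members, a share near the 50.2% of all protein-coding genes. *Ccl2*, which draws monocytes, was at 114 ± 29.2 CPM (263 TPM), *Cxcl10*, an interferon-induced chemokine, at 155 ± 16.0 CPM (181 TPM), and *Nfkbia*, the inhibitor of NF-kB, at 65.1 ± 1.00 CPM (106 TPM). The lowest by TPM were *Il6*, an interleukin of the acute phase, at 0.00883 ± 0.0177 CPM and *Ptgs2*, which makes prostaglandins, at 0.0265 ± 0.0336 CPM. *Acod1*, or Irg1, the enzyme that makes the itaconate given to other groups of the study and a gene of activated macrophages, was at 0.771 ± 0.503 CPM.

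Interferon-stimulated genes were on in 32 of 33 cases without any agent added, 13 of them at or above 100 CPM. *Ifitm3* and *Bst2*, which block virus entry and release, were at 1415 and 708 TPM and *Isg15*, a ubiquitin-like modifier, at 473 TPM. *Rsad2*, or viperin, was at 382, 227, 363 and 536 CPM and *Ifit1* at 121, 66.2, 103 and 158 CPM in A to D. Library B was lowest and D highest for both, and the median SD of the list, 0.33 on the log2 CPM scale, exceeded the 0.13 of all genes at or above 1 CPM. *Oas3* and *Oas2* were the lowest by TPM, at 3.29 ± 1.22 and 0.507 ± 0.242 CPM.

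Traces of other liver and blood cells were weak. Over 12 lists, 59 of 190 genes (31.1%) reached 1 CPM, against 50.2% of all protein-coding genes. Of the 190 genes, 17 reached 10 CPM and 47 had no count, and the median was 0.138 TPM. In bulk RNA, few cells of a type and little RNA per cell cannot be told apart, and a gene listed for another cell may be made by hepatocytes as well. The lists were drawn from markers of whole liver, and 13 of their 190 genes also stand in a list of hepatocyte or culture genes.

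Macrophage genes gave both the highest and some of the lowest values. Among 25 genes of macrophages and monocytes 14 reached 1 CPM, a share near the 50.2% of all protein-coding genes. The list summed to between 546 and 649 CPM. Nearly all of that sum came from *Cd14*, the coreceptor for lipopolysaccharide, at 396, 420, 258 and 294 CPM, and *Cd68*, a lysosomal protein, at 139, 181, 240 and 213 CPM. The complement gene *C1qa*, by contrast, was at 4.54 ± 1.49 CPM, *Csf1r*, the receptor that macrophages need, at 2.51 ± 1.16 CPM, *Adgre1*, or F4/80, at 2.15 ± 0.688 CPM, and *Ptprc*, or CD45, at 0.766 ± 0.312 CPM. *Ly6c2* and *Cx3cr1*, of monocytes, were lowest at 0.0265 and 0.0311 CPM.

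Kupffer cell genes, 9 of 12 at or above 1 CPM, were led by *Id3*, *Slc40a1*, the iron exporter, and *C6*, a complement component (114, 75.2 and 43.6 TPM), and *Slc40a1* and *C6* are also hepatocyte genes. The more specific *Cd5l* and *Marco* were at 13.3 ± 1.17 and 10.0 ± 1.65 CPM, *Clec4f* at 1.70, 2.24, 3.51 and 2.65 CPM, *Timd4* at 0.423 ± 0.207 CPM and *Cd163* at 0.205 ± 0.151 CPM. *Cd163* had no count in library A. Summed over 7 genes picked as markers, *Adgre1*, *Csf1r*, *Clec4f*, *Vsig4*, *Timd4*, *Cd163* and *Ptprc*, the level was 6.94, 10.0, 12.9 and 7.84 CPM in A to D. This sum, with a mean of 9.43 CPM, leaves out *Cd5l* and *Marco*. Each of these had a higher mean on its own, so the sum is not the whole trace of such cells.

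Endothelial genes reached 1 CPM in 15 of 24 cases, against 50.2% of all protein-coding genes. They summed to between 43.1 and 67.9 CPM, highest in library B. *Stab1*, a scavenger receptor of sinusoids, was at 13.7, 14.7, 8.66 and 10.5 CPM, *Cdh5*, the junction protein, at 5.63 ± 1.91 CPM, *Egfl7* at 3.49 ± 0.800 CPM, *Pecam1* at 3.42 ± 1.26 CPM and *Stab2* at 2.95 ± 0.543 CPM. *Emcn* and *Vwf*, of larger vessels, were at 0.154 ± 0.111 and 0.00883 ± 0.0177 CPM. The median of the list was 1.48 CPM. A sum over 6 genes picked as sinusoidal markers, *Pecam1*, *Kdr*, *Stab2*, *Lyve1*, *Clec4g* and *Dnase1l3*, was 10.7 ± 2.92 CPM. It leaves out *Stab1*, which had a higher mean on its own, 11.9 CPM, so the sum is not the whole trace of such cells.

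Stellate cells and fibroblasts left less. Of 30 genes 4 reached 1 CPM, of which *Reln*, a large glycoprotein, was the only one above 10 CPM, at 20.2, 19.95, 21.2 and 22.1 CPM. *Ecm1*, a secreted matrix protein that hepatocytes are known to make, was at 5.75 ± 0.927 CPM, and *Timp1*, an inhibitor of matrix proteases, at 2.31 ± 1.16 CPM. The other 26 genes of the list were under 1 CPM. Among them *Lrat*, which stores vitamin A, had 4 counts in A, 2 in B and none in C and D (0.0622 ± 0.0845 CPM). *Col1a1* was at 0.0378 ± 0.00466 CPM and *Des* at 0.00906 ± 0.0181 CPM, and *Acta2*, *Lum*, *Dpt* and *Loxl1* had no count. The list was thus not low throughout, since *Reln* is a member of it as well.

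Bile duct genes also split into a high and a low set. Of the 20 genes 8 also stand in a list of hepatocyte or culture genes. *Spp1*, *Sox9* and *Cldn7* were named with the progenitor genes above, so the 2 splits are partly the same observation. *Spp1*, *Cldn3* (202 ± 10.1 CPM), a tight junction protein, *Sox9*, *Onecut2* (134 ± 3.27 CPM) and the anion exchanger *Slc4a2* (77.2 ± 4.52 CPM) were among those above 10 CPM. The keratins of the ducts, *Krt19* and *Krt7*, and *Epcam* were at 0.276 ± 0.200, 0.00874 ± 0.0175 and 0.326 ± 0.173 CPM, and *Cftr*, *Sctr*, *Ggt1*, *Tff2* and *Cldn7* had no count. In all 9 of 20 genes reached 1 CPM, a share near the 50.2% of all protein-coding genes. *Sox9* and *Spp1* were thus high where the duct keratins and *Epcam* were under 1 CPM.

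Blood was nearly absent. Of 14 neutrophil genes *Mmp9* alone reached 1 CPM (1.24 ± 0.865 CPM) and 6 had no count, including *S100a9*, *Ly6g* and *Elane*. Of 18 genes of T and NK cells, *Lck* alone reached it (1.05 ± 0.355 CPM), 11 had no count, and *Cd3d*, *Cd8a* and *Trac* were among these. Of 11 B and plasma cell genes *Ighm* alone reached it (1.52 ± 0.757 CPM). Dendritic cell genes did so in 4 of 12 cases, with *H2-Ab1*, of MHC class II, at 11.1 ± 1.72 CPM and *Cd74* at 4.64 ± 0.785 CPM, while *Xcr1*, *Flt3* and *Cd209a* were at 0.

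Globin mRNA, a usual sign of red cells, was scarce. *Hbb-bs* and *Hba-a2* were at 0.586 ± 0.496 and 0.525 ± 0.650 CPM, and the 4 globins summed to 2.86, 1.19, 0.0724 and 1.09 CPM in A to D. *Alas2*, the haem synthesis enzyme of red cells, was nevertheless at 32.6, 32.6, 33.0 and 35.9 CPM, with *Slc4a1*, of the red cell membrane, at 0. Among 8 platelet genes *Gp5* (4.10 ± 1.15 CPM) and *Itga2b* (5.49 ± 1.57 CPM) reached 1 CPM, and *Ppbp*, *Gp9* and *Tubb1* were among 5 at 0. Of 9 mesothelial genes 8 had no count, and *Msln* had 0.00906 ± 0.0181 CPM.

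**Figure D5:**
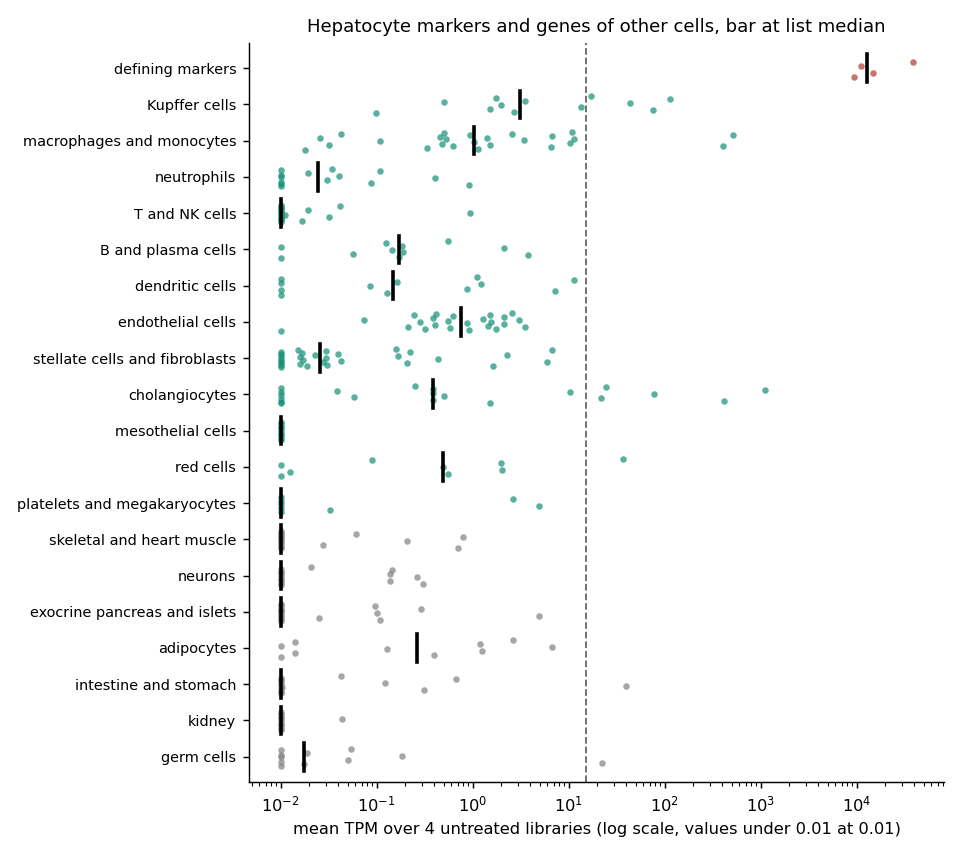
Mean TPM over the 4 untreated libraries (x axis, log scale, values under 0.01 drawn at 0.01) of each gene of the lists of other liver and blood cells and of tissues outside the liver, with a bar at the median of each list. The 4 hepatocyte markers are drawn on top at 9320 to 38560 TPM, and no list of other cells has its median above the 15.3 TPM of all genes at or above 1 CPM.

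Genes of tissues outside the liver were mostly at or near 0. Across 7 lists, 45 of 89 genes had no count, and 6 (6.74%) reached 1 CPM, against 50.2% of all protein-coding genes. Those that reached it were *Fabp2*, the intestinal fatty acid binding protein, which liver also expresses (14.7 ± 2.00 CPM), *Dppa3*, of germ cells (8.90, 11.3, 6.95 and 3.56 CPM), *Cela1*, a pancreatic elastase (4.35 ± 0.576 CPM), and *Cidec*, *Fabp4* and *Cidea*, of fat (4.72 ± 0.996, 2.05 ± 0.404 and 1.13 ± 0.259 CPM). *Cidec* and *Cidea* also stand in a list of hepatocyte or culture genes. Muscle, neuron and kidney lists had no gene at 1 CPM, and their highest members were *Tnnt2* at 0.614, *Syt1* at 0.853 and *Slc12a3* at 0.184 CPM. *Ins1*, *Ins2*, *Myh7*, *Umod*, *Adipoq*, *Pou5f1* and *Nanog* were at 0.

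Whole gene families were silent. No olfactory receptor of 1135 reached 1 CPM, and 1098 had no count. The same held for the 39 Hox genes, with a sum of 0.566 ± 0.105 CPM, and for 57 keratin-associated proteins, 56 of them without a count. Of 331 vomeronasal receptors *Vmn2r3* alone reached 1 CPM. In total 6600 of 21951 protein-coding genes had no count in any of the 4 libraries.

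Long non-coding RNAs were few at high level. *Gm42418* was at 6779, 2029, 1479 and 1569 CPM, *Gm26917* at 290, 412, 500 and 555 CPM, and *Neat1*, the scaffold of paraspeckles, at 234, 446, 536 and 370 CPM. *Gm42418* overlaps the genes *AY036118* and *CT010467.1* on the opposite strand. The strand setting is not given, so the level of *Gm42418* is uncertain. Library A was the lowest for *Gm26917* and *Neat1*. *2900097C17Rik* and *Malat1* were at 192 ± 12.4 and 173 ± 27.7 CPM. These libraries were made from captured poly(A) RNA, so non-coding RNAs without a tail are missed in an unknown share.

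The 4 libraries resembled each other closely, with library A farthest from the rest. The correlation of log2 CPM over genes at or above 1 CPM, which are not independent replicates, ran from 0.984 for A and C to 0.991 for C and D, and 106 genes between C and D against 286 between A and C differed more than 2-fold. Between the highest and the lowest library, 83.9% of the genes at or above 1 CPM stayed within 1.5-fold. The biological coefficient of variation estimated by edgeR was 10.6% over all genes at or above 1 CPM, and 18.5% for genes of 1 to 10 CPM. Every pair of libraries differed by more than counting noise, so none looked like a library deposited more than once, which does not show that they came from separate mice.

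The widest genes were of mixed kind. By the SD of log2 CPM among genes of at least 10 CPM, the widest was *Rn7s1*, a signal recognition particle RNA, at 109 CPM in A and 9.60, 4.03 and 3.94 CPM in B to D. *Lars2*, a mitochondrial leucyl-tRNA synthetase, was at 725, 233, 176 and 188 CPM and *Gm42418* had the same order, which leaves A far above the others in all 3. *Tcf24* was at 31.7 CPM in A against 7.90 to 11.9 CPM. Without library A the mean of *Gm42418* was 1693 CPM, that of *Lars2* 199 CPM, that of *Rn7s1* 5.85 CPM and that of *Tcf24* 10.5 CPM, against 2964, 330, 31.7 and 15.8 CPM over all 4.

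The rest of the widest genes followed no single library. *Mup18*, *Mup9*, *Tmem254c* and *Rpl27-ps3* have near-identical relatives, and *Gm45140* overlaps the genes *Isy1* and *Rab43* on its own strand, so the levels of these 5 genes are uncertain. *Mup9* was at 61.2, 15.7, 12.4 and 35.7 CPM, *Rpl27-ps3* at 7.75, 38.1, 7.35 and 34.1 CPM, *Tmem254c* at 16.9, 7.52, 14.7 and 1.86 CPM, *Gm45140* at 6.03, 15.8, 26.03 and 25.02 CPM and *Gm47283* at 39.5, 147, 127 and 77.8 CPM. Only 47 of 8400 genes of at least 10 CPM had an SD above 0.5 on the log2 scale.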

How the data were processed

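Poly(A) RNA of 4 untreated cultures of mouse hepatocytes was sequenced among 16 libraries. The authors deposited RSEM expected counts per gene. The submitters' processing notes name bcl2fastq 2.20, cutadapt 1.18, STAR 2.7.0f, Picard 2.18.26 and RSEM 1.3.1 with build mm10, and the identifiers matched GENCODE M21. The strand setting is not given in the sources used here, so overlapping and antisense genes are uncertain.

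CPM used the sum of all expected counts, unrounded, and TPM the merged exon length. A gene was called present at a mean of at least 1 CPM. Python 3.11.15, pandas 2.3.3, NumPy 2.4.6 and matplotlib 3.10.9 were used, and R 4.3.3 with edgeR 4.0.16 and DESeq2 1.42.0 for alternative library sizes, for which the counts were rounded. No groups were compared and no p-value was computed. The alternatives were other library sizes, limits, gene lengths and left-out libraries, and promoter letters, gene pairs and pseudogene sums were added after levels had been seen.

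Members and lists were chosen with earlier results of these data known. Named genes were the 30 highest by CPM, the 3 highest and 2 lowest by TPM of each list, list members absent or present against their list's name, the 10 most variable genes of at least 10 CPM, and the top non-coding RNAs and pseudogenes. Members of nearly silent lists are given as counts, and other genes were named for their role after values were seen. Some genes are not reported here.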

Additional observations from a re-analysis of the deposited data

Results flagged for a closer look

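For named genes and list sums with a mean of at least 1 CPM, and for library totals and shares of counts, it was asked whether 1 of the 4 libraries lay far from the other 3. The measure was Dixon's ratio, the gap to the nearest library divided by the whole range, against its critical value for 4 samples. Of 317 sets of 4 values 24 exceeded it. Chance alone gives about 1 in 20, or 15.8 sets, for independent sets that were not picked by their values. The sets here are not independent, and some genes were named because they varied most between these same libraries. The 24 sets therefore cannot be weighed against the chance figure. The library apart was A in 16 of the 24 sets, D in 6, C in 2 and B in 0. The 16 include *Gm42418*, *Lars2*, *Rn7s1* and *Tcf24*, which were named for their spread.

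Library A had the smallest total, 22346049 counts, and the fewest genes with a count, 17698. It was the high library for *Gm42418* (6779 CPM), *Lars2* (725 CPM), *Rn7s1* (109 CPM) and *Tcf24* (31.7 CPM). It was also high for enzymes of nitrogen and amino acid metabolism, namely *Cps1* (278 CPM), *Gnmt* (392 CPM), *Hal* (32.7 CPM), *Sds* (20.2 CPM) and the sum of the urea cycle and ammonia list (2401 CPM against a median of 1965 CPM), and for the liver glycogen synthase *Gys2* (25.8 CPM). It was the low library for *Hnf4a* (182 CPM), *Mcm6* (141 CPM), *Cldn3* (187 CPM) and the macrophage gene *C1qa* (2.33 CPM). Whether the lower depth of library A has a part in these values was not tested.

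Library D had the largest mitochondrial share, 4.14% of counts for the mitochondrial genes and 5.35% with the matching pseudogenes, but the lowest *mt-Co3*, at 282 CPM. It was the low library for *Apoc1* (1116 CPM) and *Cebpb* (197 CPM) and the high one for *Alas2* (35.9 CPM). Library C was low for *Glul* (97.2 CPM) and high for *Gstp1* (2202 CPM).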

How the results depend on the processing

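For 470 results, 3872 values were recomputed, under each alternative that applies to them. Of these values, 3833 moved by less than the SD between libraries, or for a count by less than 1.5 times. Leaving out a single library cannot shift a mean by as much as that SD. For means, this limit therefore could not show a dependence on a library. *Gm42418* counted as unmoved although its mean fell from 2964 to 1693 CPM without library A, and *Rn7s1* although it fell from 31.7 to 5.85 CPM. No value moved with edgeR TMM or DESeq2 median-ratio library sizes, or with counts rounded to whole numbers. With the mitochondrially encoded genes left out of the library total, 12 named genes and 6 list sums moved, all upward, and the share of counts in the 100 most abundant genes was 32.3% in place of 31.1%. Counting every gene with at least 1 count in any library gave 21461 genes in place of 11661. At a limit of 0.5 CPM, 11 genes of tissues outside the liver passed in place of 6, so traces at this level depend on the limit. Leaving out each library in turn gave 11649 to 11685 genes at or above 1 CPM, 481 to 482 genes of hepatocyte function, 53 to 61 of other liver and blood cells, and a share of 30.6 to 31.3% for the 100 most abundant genes. It moved 7 counts for single lists, each between 0 and 2 genes. By the longest transcript, 19 of the 30 most abundant genes by CPM were shared with the order by TPM, against 20 by merged exons.

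No paired analysis was possible because only untreated libraries were used and no groups were compared. At 22346049 to 28619798 counts, 1 CPM was worth 22.3 to 28.6 counts in a library, and genes near the floor cannot be told from absent ones.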

Other observations

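Several abundant mRNAs stood in none of the gene lists and were named after their values had been seen. *Sprr1a*, a protein of the cornified envelope of skin, was at 1044, 1139, 1156 and 1246 CPM in libraries A to D (3725 ± 314 TPM), close together and above *Apob* on the TPM scale of the means. *Ivl*, or involucrin, a partner of it in skin, was at 10.4, 21.7, 18.9 and 31.03 CPM. *Tgm2*, a transglutaminase that crosslinks proteins, was at 2732 ± 214 CPM (SD, n = 4), and *Sqstm1*, the autophagy receptor p62, at 2537 ± 94.9 CPM. *B2m*, *H2-K1* and *H2-D1*, which form MHC class I on the cell surface, were at 1231 ± 71.1, 1273 ± 36.5 and 1108 ± 53.3 CPM.

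Genes of the antioxidant response were also outside the lists. *Gclc* and *Gclm*, the subunits of the enzyme that opens glutathione synthesis, were at 894 ± 118 and 266 ± 17.4 CPM, *Txnrd1*, thioredoxin reductase, at 875 ± 53.0 CPM and *Srxn1*, sulfiredoxin, at 615 ± 39.9 CPM. *Nqo1*, a quinone reductase often read together with them, was at 7.83, 6.11, 4.24 and 6.14 CPM. By TPM it was at 10.2 TPM, and the lowest of the other 4, *Gclm*, at 111 TPM. Of further glycolytic enzymes, *Eno1*, *Ldha* and *Pgk1* were at 2406 ± 282, 2170 ± 277 and 1716 ± 122 CPM, and for *Eno1* and *Ldha* library A was the lowest and C the highest.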
